A study of Caenorhabditis elegans with 6 samples.

Results

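The genes described here are 143 of the *col-* collagen genes of *Caenorhabditis elegans*, out of 20447 rows of a gene count table. They were chosen by name. The table held 156 rows whose WormBase symbol starts with *col-*, and 6 of these, *col-9*, *col-52*, *col-55*, *col-126*, *col-127* and *col-171*, had fewer than the required 10 counts over all libraries. Another 7, *col-42*, *col-80*, *col-93*, *col-101*, *col-147*, *col-159* and *col-160*, were left out because they were strongly lowered in mutant larvae. That exclusion used the L1 contrast of these libraries, so the balance between rises and falls among the remaining genes in L1 larvae was set in part by the selection. The lowest member, *col-148*, had 10 counts in all, the next, *col-94*, had 11, and the highest row under the minimum had 6.

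Poly(A)+ RNA was sequenced from wild-type worms (strain N2) and from worms with the *tm2321* deletion allele of *ebax-1*, whose product selects substrates for an E3 ubiquitin ligase, in 6 libraries. Starved first-stage (L1) larvae, hatched overnight without food, gave 2 wild-type and 2 *ebax-1(tm2321)* libraries (strain CZ9907) from 3 µg of total RNA each, which the study's methods describe as biological replicates. Gravid adults, taken after about 68 h on food, gave 1 wild-type library and 1 *ebax-1(tm2321)* library (strain FX02321) from 10 µg each, and all worms were kept at 20 °C. The L1 libraries were made to follow targets of a microRNA family and the adult libraries to follow genes near piRNA loci, so collagens were not the object of either comparison. The mutant strain differed between the stages, and *tm2321* was the only allele. Whole worms were used, so that fewer cells making a transcript and less of it per cell cannot be told apart. According to the study, gravid adults hold many germline cells and embryos. Transcripts in the adult libraries therefore cannot be assigned to adult tissue or to embryos.

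The cuticle of a nematode is an extracellular coat made largely of small collagens, which the epidermis secretes and replaces at each molt. Each collagen chain carries blocks of Gly-X-Y repeats. Its prolines are hydroxylated in the endoplasmic reticulum by prolyl 4-hydroxylases, of which DPY-18 and PHY-2 act together with the protein disulfide isomerase PDI-2, and the chains fold into trimers. Proteases that include BLI-4 and DPY-31 trim the chains, and the oxidase BLI-3 with the peroxidase MLT-7 cross-links them through tyrosines. Collagen genes are switched on in waves within each molting cycle, and some are confined to a single stage: *col-19* is a widely used adult marker controlled by the heterochronic pathway, *col-7* is also expressed in adults, and *col-2* is associated with the dauer larva. The name *col-* does not guarantee a cuticle collagen, since *col-99* encodes a transmembrane collagen related to mammalian collagens of that kind. For most other members no separate role is given here beyond belonging to this family.

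The members were spread over all 6 chromosomes, with 38 on chromosome IV, 27 on V, 25 on X, 23 on II, 19 on I and 11 on III (WBcel235, Ensembl release 115). Their coding sequences ran from 702 to 2232 bp, with a median of 912 bp, and had a median of 2 coding exons. The longest, with 18 coding exons, was *col-99* (chromosome IV, 137974 to 147919). Reads were counted over coding sequence only, no member overlapped the coding sequence of another gene on the same strand, and 37 members stood next to another collagen gene.

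Each library held 10937932 to 13425500 counts in L1 larvae, 21328335 in the wild-type adult and 13148409 in the mutant adult. Members took 0.300% and 0.313% of the counts in the wild-type L1 libraries, 0.239% and 0.243% in the mutant L1 libraries, 1.38% in the wild-type adult and 1.90% in the mutant adult. The *ebax-1* transcript itself, measured over its whole coding sequence because the deleted part is not counted separately, was at 76.04 and 74.01 CPM (counts scaled to library size) in wild-type L1 libraries and at 40.8 and 46.2 CPM in the mutant ones. In adults it had 1051 counts in the wild-type adult and 275 in the mutant, so it was lower in every mutant library. Epidermal markers, from the tissue that makes the cuticle, were detected in all 6 libraries, with summed levels of 1685 and 1705 CPM in wild-type L1 libraries, 1752 and 1909 CPM in mutant ones, and 612 and 701 CPM in the wild-type and mutant adults.

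Wild-type larvae and adults used largely different collagens. In starved L1 larvae 5 members stood out, *col-107* at 828, *col-103* at 574, *col-98* at 429, *col-39* at 390.3 and *col-118* at 174 CPM per kb of coding sequence, and the 5 leading members of each library held 66.1% and 68.6% of all member CPM in the 2 wild-type libraries. In the wild-type adult the leading levels were those of *col-119* at 2480.0, *col-140* at 1543, *col-20* at 1533, *col-124* at 1140.0 and *col-106* at 862 CPM per kb. These 5 adult collagens were close to silent in L1 larvae, where *col-124* was the most abundant of them with 4 and 8 counts. No member was among the 5 highest at both stages.

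Of the 135 members that could be tested, 71 were higher and 41 lower in the wild-type adult than in wild-type L1 larvae (edgeR's quasi-likelihood test over 6 libraries, adjusted p under 0.05), against 43.2% of all 16376 genes tested higher and 41.1% lower, 84.3% in all. The median of the members was a log2 difference of 1.56, against 0.05 over all genes. Of the 71 higher members, 59 had too few L1 counts to enter a test within L1 larvae, so they could be tested only because they were high in adults. Among the 70 that had enough L1 counts, 12 were higher and 41 lower in the adult. These 70 were kept for their L1 counts, which favours falls in the adult, and they hold all 41 lower members. The shares among all genes passing the same L1 filter were not computed. The wild-type adult is 1 library, whose spread was taken to be that of the L1 replicates, and age, food and RNA input changed together.

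The adult marker *col-19* had 3 and 5 counts in the wild-type L1 libraries and 16667 in the wild-type adult, a ratio of 2120.0 after scaling (95% counting interval 1076 to 4912). *col-119*, the most abundant adult member, had 1 and 1 counts in L1 libraries and 49400 in the adult, and the ratio was known only within 6959 to 207600.0. *col-20* followed with 1 and 1 counts in L1 larvae and 30442 in the adult. These 3 genes were present at trace level at most in L1 larvae, and so were 3 more adult members. *col-178* had 0 and 1 L1 counts against 9655 in the adult. Its neighbour *col-179* had no L1 count and 5291 adult counts, at least 1795-fold higher when the pair of L1 libraries is set at a floor of 3 counts. *col-135* likewise had none in L1 larvae and 1346 in the adult, at least 457-fold higher. Not every adult collagen was abundant: the adult-expressed *col-7* had 0 and 0 counts in wild-type L1 libraries and 11 in the wild-type adult.

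The falls from larva to adult were smaller on this scale. The larval collagens stayed detectable in the adult library, which also holds embryos. *col-39* had 4274 and 4546 counts in wild-type L1 larvae and 217 in the adult, a log2 difference of -5.32 ± 0.16 (SE, adjusted p = 1.74e-23, edgeR). *col-107* went from 8672 and 8382 counts to 535 (-4.97 ± 0.15). *col-117* (-4.43 ± 0.47), *col-91* (-4.36 ± 0.25) and *col-3* (-3.59 ± 0.37) completed the 5 largest falls, and all were lower in the adult than in both L1 libraries. *col-103* and *col-98* fell by less, to 181 and 124 CPM per kb, and remained among the 20 members at or above 100 CPM per kb in adults when both genotypes were averaged.

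**Figure D1:**
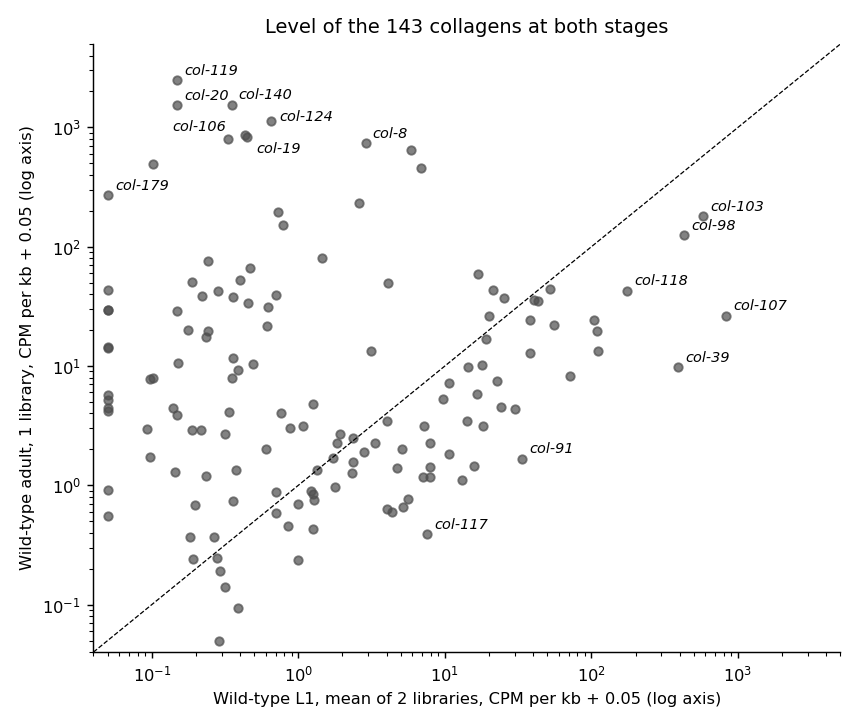
Level of each of the 143 collagens in wild-type starved L1 larvae (mean of 2 libraries, horizontal) and in the wild-type gravid adult (1 library, vertical), in CPM per kb of coding sequence on log axes with 0.05 added. The dashed line marks equal levels, *col-107* at 828 in L1 larvae and *col-119* at 2480.0 in the adult lead their stages, and many adult collagens sit at the left edge, near 0 in L1 larvae.

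In starved *ebax-1* L1 larvae the most abundant collagens of this set were lower than in wild type, while some of its moderate ones were higher. This contrast depends in part on the exclusion of 7 collagens that fell. Some of those were of moderate level, such as *col-93* at 41.85 CPM per kb in wild-type and 1.46 in mutant L1 larvae. *col-98* was 357 and 391 CPM in the wild-type libraries and 147 and 123 CPM in the mutant libraries, and *col-39*, *col-103* and *col-107* were each lowered by close to 1 log2 unit. The rises were smaller: *col-104*, the largest among members above 5 CPM, was 20.3 and 20.2 CPM in wild type and 35.8 and 40.2 CPM in mutants. Of the 143 members, 70 had enough L1 counts for the test, and 15 were called higher and 13 lower (edgeR, adjusted p under 0.05), which is 21.4% and 18.6% of those tested. Over all 13756 genes tested, 6.59% were called higher and 9.97% lower, 16.6% in all. The median log2 fold change was -0.09 over the members and 0.01 over all genes, and scaling by total counts, which moved the median of all genes to 0.17, turned the members' median to 0.07.

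All 28 called members had mutant libraries that lay wholly above or wholly below both wild-type libraries. Such separation was found for 44 tested members, with the mutants above in 21 (30.0% of those tested) and below in 23 (32.9%), shares near the 27.8% and 28.3% of all genes. Another 8 members had an unadjusted p under 0.05 without passing the adjusted threshold. With the 7 strongly lowered collagens put back, the falls numbered 20 and the rises stayed at 15. Without replicate 2 of the wild-type L1 larvae, 9 members were called higher in place of 15, and DESeq2 called 10 members higher and 10 lower, against 3.44% and 7.15% of all genes.

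The decreases began with the leading L1 collagens. *col-98* (chromosome III, 13019008 to 13020226) fell by 1.47 ± 0.10 on the log2 scale (SE, adjusted p = 5.42e-10, edgeR). *col-39* (chromosome II, 10704916 to 10706019) was at 335 and 385 CPM in wild type and 164 and 166 CPM in mutants, a log2 fold change of -1.13 ± 0.09 (adjusted p = 1.22e-08, edgeR). *col-103* was at 570.0 and 648 against 294 and 323 CPM (-0.98 ± 0.09). The spread within each pair of libraries was small beside these differences. *col-107*, the most abundant member in both genotypes, was at 679.8 and 711 CPM in wild type and 343 and 382 CPM in mutants (-0.94 ± 0.09). *col-118*, the next in abundance, was lower by less, at 143 and 152 against 99.8 and 109 CPM (-0.50 ± 0.09). Every one of the 5 leading wild-type L1 members was therefore lower in both mutant libraries, and the 5 leading members of each mutant library held 49.1% and 48.9% of member CPM.

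Less abundant members fell by as much. *col-176* was at 13.6 and 10.6 CPM in wild type and 3.91 and 4.95 CPM in mutants, a log2 fold change of -1.45 ± 0.21 (adjusted p = 3.85e-05, edgeR). *col-91* was at 26.02 and 26.96 against 13.6 and 13.5 CPM (-0.97 ± 0.13, adjusted p = 2.22e-05, edgeR), with mutant libraries that differed by less than either differed from wild type. *col-151* was at 4.62 and 5.68 against 2.604 and 1.85 CPM (-1.20 ± 0.29), but its adjusted p was 0.0592 when replicate 2 of the wild type was left out. Of these 3 genes only the last depended on a single library for its call. *col-153* was at 21.3 and 19.5 CPM in wild type and 12.8 and 11.7 CPM in mutants (-0.74 ± 0.15). *col-53* was at 13.6 and 15.3 against 9.52 and 9.72 CPM (-0.59 ± 0.16, adjusted p = 0.0149, edgeR), and its adjusted p was 0.0883 in DESeq2 and 0.147 without replicate 2 of the wild type. *col-166* (-0.41 ± 0.09) and *col-99* (-0.49 ± 0.16) were also called lower. The transmembrane collagen *col-99* had 17.9 and 15.3 CPM in wild type and 11.3 and 12.4 CPM in mutants, and its adjusted p of 0.0314 in edgeR became 0.155 in DESeq2 and 0.297 without replicate 1 of the wild type.

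The largest proportional fall was that of *col-92* (chromosome III, 10982139 to 10983253), which was named after its values were seen because its level is under the 5 CPM asked of the others. It had 18 and 40 counts in the wild-type L1 libraries and 2 and 1 in the mutant ones, a log2 fold change of -4.12 ± 0.69 (adjusted p = 1.93e-04, edgeR). The wild-type libraries themselves differed by more than a factor of 2 in this gene. It stands directly beside *col-93*, one of the 7 strongly lowered collagens left out, and has a coding sequence of the same length. The sequences of *col-92* and *col-93* were not compared. How unique alignment divided reads between them was not tested.

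The increases covered collagens of middle abundance. *col-104* (chromosome IV, 1353636 to 1355305) had a log2 fold change of 0.91 ± 0.12 (adjusted p = 1.11e-05, edgeR). *col-115* was at 9.09 and 8.65 CPM in wild type and 17.1 and 16.2 CPM in mutants (0.91 ± 0.16). *col-77* was at 35.04 and 39.9 against 53.5 and 65.3 CPM (0.66 ± 0.11). None of the 15 called rises reached 2-fold, and their median was 0.59. *col-14* was at 55.4 and 46.6 CPM in wild type and 70.6 and 88.7 CPM in mutants (0.64 ± 0.11). *col-48* was at 30.6 and 31.03 against 42.4 and 50.4 CPM (0.59 ± 0.11). *col-97* was at 36.1 and 33.1 against 47.3 and 53.7 CPM (0.55 ± 0.11), and *col-76* at 26.8 and 27.3 against 36.5 and 40.2 CPM (0.50 ± 0.11). In each of these genes the lower mutant library was above the higher wild-type library.

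Further rises rested on fewer libraries or on the choice of tool. *col-58* was at 6.51 and 5.34 CPM in wild type and 8.95 and 10.9 CPM in mutants (0.74 ± 0.20), and its adjusted p of 0.0146 in edgeR was 0.0808 in DESeq2 and 0.134 without replicate 2 of the wild type. *col-167* was at 9.48 and 8.82 against 13.2 and 14.7 CPM (0.60 ± 0.17), with an adjusted p of 0.0146 in edgeR, 0.0857 in DESeq2 and 0.111 without that same library. *col-109* was at 14.97 and 17.97 against 24.5 and 24.7 CPM (0.58 ± 0.14), and its adjusted p was 0.00469 in edgeR and 0.0999 without replicate 1 of the wild type. The remaining called rises were *col-180* (0.82 ± 0.27), *col-113* (0.47 ± 0.12), *col-165* (0.46 ± 0.08), *col-74* (0.40 ± 0.09) and *col-125* (0.37 ± 0.10). In DESeq2 the adjusted p was 0.199 for *col-180*, 0.0537 for *col-113* and 0.0585 for *col-125*. The calls of *col-180*, *col-113*, *col-74* and *col-125*, but not that of *col-165*, were each lost in a fit without an L1 library. *col-165* and *col-74* were the 2 rises above 100 CPM per kb, and *col-165* took the place of *col-118* among the 5 leading members of the mutant.

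**Figure D2:**
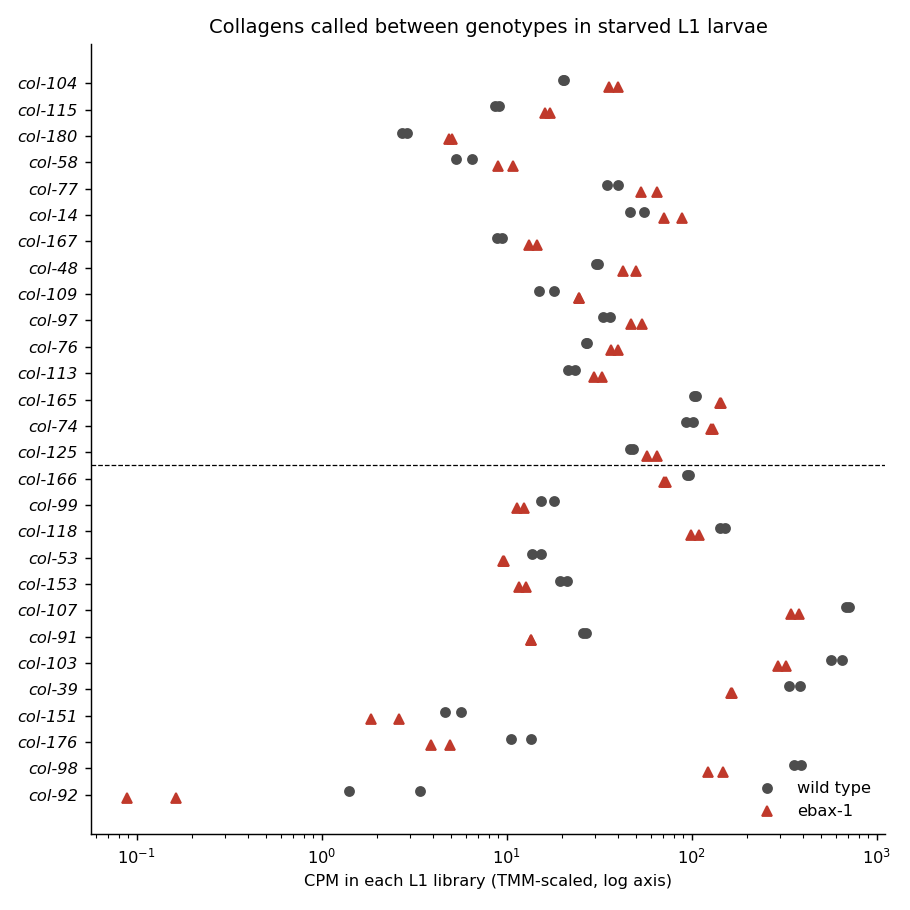
CPM of the 28 called collagens in each L1 library on a log axis, with circles for the 2 wild-type libraries and triangles for the 2 *ebax-1* libraries, ordered by fold change with rises above the dashed line. Wild-type and mutant points do not overlap in any row, from *col-104* (20.3 and 20.2 against 35.8 and 40.2 CPM) at the top to *col-92* at the bottom.

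Among the members kept here, the direction of the calls differed between levels of the gene. The 7 collagens left out were all called lower in this same contrast and are in none of the groups that follow. The balance in each group was therefore set in part by that exclusion. Left out were, for example, *col-80* (145.5 CPM per kb in wild-type and 21.91 in mutant L1 larvae) and *col-147* (111.8 and 35.43). At or above 100 CPM per kb, averaged over both L1 genotypes, 7 members were all called, 5 lower and 2 higher. Between 20 and 100 CPM per kb, 9 of 15 were higher and 2 lower. Between 5 and 20 CPM per kb, 3 of 23 were higher and 4 lower, and below that 1 was higher and 2 lower, with 73 of 98 not tested. Because the leading members carry most of the transcript, the summed level of all members was 3309 and 3500 CPM in wild-type larvae and 2330 and 2473 CPM in mutants. The level and the fold change come from the same libraries, so this is a description of them. Shares of all genes at the same levels were not computed.

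**Figure D3:**
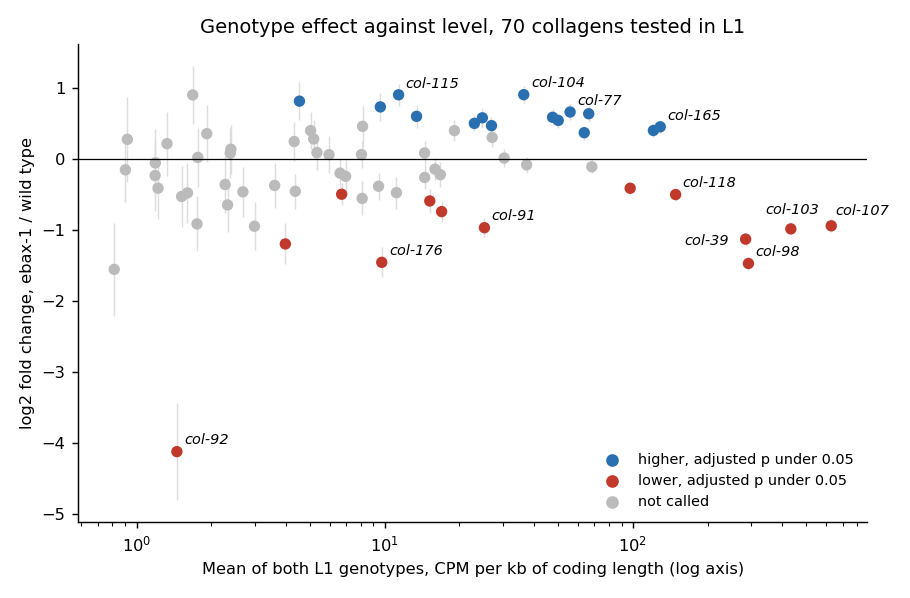
Log2 fold change between *ebax-1* and wild-type L1 larvae (vertical, bars show the standard error) against the mean level in both genotypes, in CPM per kb of coding sequence on a log axis (horizontal), for the 70 tested collagens. The 4 most abundant, *col-107*, *col-103*, *col-98* and *col-39*, lie between -1.47 and -0.94, while between 20 and 100 CPM per kb 9 of 15 collagens are called higher. The 7 collagens left out for their fall in this contrast are not shown.

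Members not called included abundant ones. *col-10* was at 59.3 and 59.7 CPM in wild type and 52.98 and 57.4 CPM in mutants (-0.11 ± 0.09, adjusted p = 0.502, edgeR). *col-34* was at 34.2 and 31.3 against 32.1 and 29.9 CPM (-0.08 ± 0.11). *col-144* was at 26.5 and 24.1 against 26.2 and 24.9 CPM (0.02 ± 0.12). For these 3 genes the standard error was 0.09 to 0.12, so that changes of the size seen in *col-39* lay outside their spread. *col-3* was at 11.6 and 10.6 CPM in wild type and 10.6 and 5.300 CPM in mutants, where 1 mutant library was close to wild type and the other was lower, and it was called only without mutant replicate 1 (-0.47 in all libraries, -1.07 without it). The 73 members without enough L1 counts, *col-19* (3 and 5 counts in wild type, 1 and 1 in mutants) among them, give no statement on genotype in larvae.

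Genes that make and finish collagen did not follow the leading collagens in L1 larvae. Of 17 tested genes of collagen synthesis and processing, 9 were called higher and none lower in mutants, against 6.59% and 9.97% of all genes. The median log2 fold change of the 17 was 0.44. The disulfide isomerase genes led: *pdi-6* was at 194 and 170.3 CPM in wild type and 349 and 341 CPM in mutants (0.92 ± 0.09, adjusted p = 2.09e-07, edgeR), and *pdi-2*, whose product is a subunit of prolyl 4-hydroxylase, was at 542 and 511 against 1002 and 902 CPM (0.85 ± 0.09). *pdi-1* (0.65 ± 0.08) and the COPII coat gene *sec-23* (0.61 ± 0.09) rose as well. The catalytic subunit gene *dpy-18*, added after its values were seen, was at 42.9 and 32.4 against 71.6 and 58.3 CPM (0.79 ± 0.12, adjusted p = 9.88e-05, edgeR), and the processing protease genes *bli-4* and *dpy-31* had values of 0.06 ± 0.08 and -0.19 ± 0.11 without passing the test. Among 8 genes of cuticle cross-linking, 1 was called, *duox-2* at 0.392 and 0.424 CPM against 1.302 and 1.502 CPM, and the main oxidase gene *bli-3* was at -0.03 ± 0.11.

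None of 17 tested regulators of collagen genes passed in either direction by edgeR. The nearest were *dbl-1*, a TGF-beta ligand that controls body size, at -0.30 ± 0.11 (adjusted p = 0.0646, edgeR) and *blmp-1*, a zinc-finger regulator of molting cycles, at -0.30 ± 0.12 (adjusted p = 0.0845, edgeR). Of 10 tested body-shape collagens of the *dpy*, *rol*, *sqt*, *bli* and *lon* genes, *dpy-17* was lower (-0.31 ± 0.10) and the other 9 were not called. Molting-cycle genes gave 1 fall in 11, *lrp-1* (-0.40 ± 0.09), and 9 epidermal markers gave 1 rise, the intermediate filament gene *ifb-1* (0.58 ± 0.09). Over all genes 9.97% were called lower and 6.59% higher. A single call in each of these short lists is near those shares.

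Some markers of other tissues also differed between the L1 genotypes. Of 13 maternal and early embryonic transcripts, 9 were called higher in mutants and none lower, against 6.59% and 9.97% of all genes. The median of the 13 was 0.85. Their summed level was 118 and 115 CPM in wild-type larvae and 255 and 203 CPM in mutants, none was at 0 in any library, and *mex-5* and *mex-6*, both zinc-finger proteins of the early embryo, led with 1.25 ± 0.14 and 1.499 ± 0.17. Body wall muscle genes gave 2 falls in 6, *unc-54* (-0.52 ± 0.11) and *unc-15* (-0.33 ± 0.09). The other 4 muscle genes were not called and lay above 0, and the median of the 6 was 0.05. Intestinal genes gave 1 fall in 6, *ifb-2* (-0.35 ± 0.10), with 3 above 0, 3 below and a median of -0.02. The falls were 33.3% and 16.7% of these short lists, beside 9.97% of all genes. The part of such differences in the collagen values was not tested.

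Adult collagens that differed at least 2-fold between the genotypes were mainly genes of low and middle level. Of 116 members with at least 50 counts over both adult libraries, 32 were at least 2-fold higher in the *ebax-1* library and 24 at least 2-fold lower, which is 27.6% and 20.7% of those measured. Over all 13563 genes measured the same way, 3.24% were 2-fold higher and 2.65% 2-fold lower, 5.9% in all. The median of the members was 0.31 on the log2 scale. Each genotype has 1 adult library, so there is no test, and the intervals given below cover counting error only. The adult mutants were of strain FX02321, so strain, culture and genotype cannot be told apart.

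The leading adult collagens were under 2-fold apart between genotypes, and those named here were higher in the mutant. *col-119* had 49400 counts in the wild-type adult and 33964 in the mutant, a ratio of scaled levels of 1.097 (95% interval 1.08 to 1.11). *col-20* had 30442 and 21375 counts (1.12, 1.101 to 1.14), and *col-140* had 30746 and 25817 (1.34, 1.32 to 1.36). The adult marker *col-19* had 16667 and 15026 counts (1.44, 1.41 to 1.47). These genes were thus modestly higher in the mutant library in the same direction. *col-106* (1.51, 1.48 to 1.55), *col-124* (1.64, 1.61 to 1.67) and *col-122* (1.801, 1.76 to 1.84) were also higher and under 2-fold. The 60 members under 2-fold together went from 12900 CPM in the wild-type adult to 17100 CPM in the mutant. Of the 20 members at or above 100 CPM per kb, averaged over both adults, 16 were under 2-fold, 4 were at least 2-fold higher and none was 2-fold lower.

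Those 4 abundant collagens were *col-143*, *col-142*, *col-139* and *col-129*, named after their values were seen. *col-143* had 4289 counts in the wild-type adult and 5557 in the mutant (2.07, 1.99 to 2.15). *col-129* had 1154 and 3114 counts (4.304, 4.02 to 4.61). *col-139* had 1420 and 2759 (3.099, 2.91 to 3.31), and *col-142* had 1316 and 2081 (2.52, 2.35 to 2.71). Each of the 4 intervals lay above 1, which the choice of 2-fold rises at these counts nearly ensures.

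The largest proportional rises were of collagens at a low level in the wild-type adult library. *col-145* (chromosome V, 9161992 to 9163005) had 11 counts in the wild-type adult and 103 in the mutant, a ratio of 14.9 (8.01 to 30.9). *col-156* had 13 and 115 counts (14.1, 7.93 to 27.3), and *col-146* had 13 and 95 (11.7, 6.500 to 22.7). The wild-type counts of these 3 were at or under 13, so their ratios were loosely determined. *col-133* had 92 and 637 counts (11.04, 8.86 to 13.9). *col-91* had 31 and 187 (9.62, 6.55 to 14.6), the fifth largest rise. As a class the 32 higher members went from a summed 563 CPM in wild type to 1660 CPM in the mutant.

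Most of the lowered class had few counts in L1 larvae. *col-108* (chromosome IV, 1768588 to 1769702) had 84 counts in the wild-type adult and 0 in the mutant, at least 17.6-fold lower with the mutant set at a floor of 3 counts. *col-183* had 315 and 21 counts (0.106, 0.0649 to 0.165). *col-185* had 120 and 8 (0.106, 0.0449 to 0.216), and neither of these last 2 had a count in any L1 library. *col-51* had 335 and 24 counts (0.114, 0.0722 to 0.173). The dauer-associated *col-2* had 883 and 81 (0.146, 0.115 to 0.184). *col-37* (882 and 82) and *col-36* (1064 and 172), named after their values were seen, were similar in level to *col-2* and also lower.

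Across the 24 lowered members the median wild-type adult count was 272 and the median mutant count 24.5, and their summed level went from 399 to 83.4 CPM. Their median over the 4 L1 libraries together was 5 counts, and 20 of the 24 had 20 or fewer, while *col-33*, *col-43*, *col-44* and *col-108* had more, up to 126. That was the case for 11 of the 32 raised members, whose median was 89.5, and for 19 of the 60 members under 2-fold, whose median was 196. Put by the L1 filter, 2 of the 24 lowered members, *col-33* and *col-44*, had enough L1 counts for the L1 test, against 18 of the 32 raised and 37 of the 60 others. This relation of classes to stage is a description, since the classes were cut from 1 pair of libraries. All 24 intervals of the lowered class lay below 1 and all 32 of the raised class above it. A cut at 2-fold on at least 50 counts makes this nearly certain, so it adds no support.

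**Figure D4:**
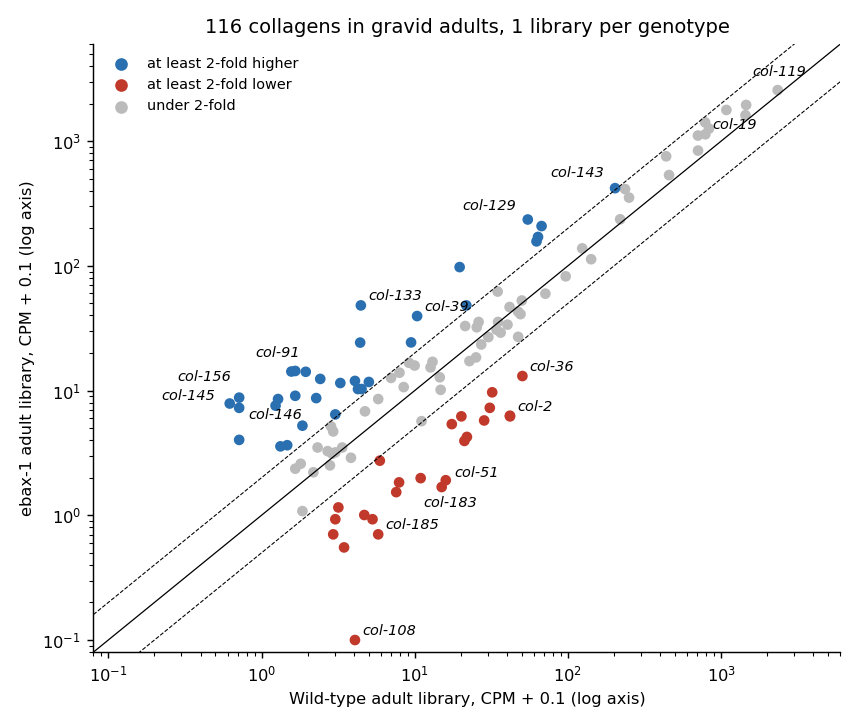
CPM of the 116 measured collagens in the wild-type adult library (horizontal) and the *ebax-1* adult library (vertical), on log axes with 0.1 added. The solid line marks equality and the dashed lines 2-fold, with 32 genes above (blue), 24 below (red) and *col-108* at 0 in the mutant at the bottom.

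Among collagens outside the 143 some also passed 2-fold in adults, and in the other gene lists no gene did. Of the 7 collagens left out for their fall in mutant larvae, 5 were at least 2-fold higher in the mutant adult and none 2-fold lower, with a median of 1.44 on the log2 scale. None of the measured genes of collagen synthesis (17), cross-linking (7), regulators (17), epidermis (9), maternal and early embryo (13), muscle (6), intestine (6) or the molting cycle (12) reached 2-fold, and their medians ran from -0.31 for intestine to 0.37 for muscle. Molting-cycle genes had a median of -0.28 and a summed level of 765 CPM in wild type and 602 CPM in the mutant. Of 20 body-shape collagens, 2 were at least 2-fold higher and 2 lower, 10% in each direction beside the 3.24% and 2.65% of all genes. *dpy-14* (897 and 1728 counts, log2 1.62) and *dpy-17* (866 and 1662, 1.61) were 2-fold higher. *bli-1* (2379 and 733, -1.02) and *bli-2* (1894 and 582, -1.03), collagens of the struts of the adult cuticle, were 2-fold lower. The part of these values in the collagen differences was not tested.

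The genotype difference was not the same at both stages for many members. A term for the difference between stages called 28 members with a more positive genotype effect in adults and 9 with a more negative one, of 135 tested, against 4.49% and 4.66% of all 16376 genes, 9.15% in either direction (edgeR, adjusted p under 0.05). DESeq2 called 8 and 1, gave 16 of the 37 no adjusted p, and did not call the other 12. Of the 135, 65 had too few L1 counts for the test within larvae and entered through their adult counts, and 5 of the positive and 4 of the negative calls were among them. With enough L1 counts, 23 and 5 of 70 members were called. Leaving out 1 L1 library in turn lost 13 of the 37 calls at least once, *col-99* and *col-51* among them. The term rests on 1 adult library per genotype, whose spread was taken from the L1 replicates, and the mutant strain differed between stages.

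Among members measured in adults, the collagens lowered in mutant larvae were at or above wild type in the mutant adult, except *col-153*. *col-151*, also lowered in L1 larvae, was under the minimum of 50 adult counts. It had 16 counts in the wild-type adult and 2 in the mutant (0.199, 0.0222 to 0.848). *col-39*, lowered in L1 larvae, had 217 counts in the wild-type adult and 523 in the mutant (3.84, 3.27 to 4.53), and the difference of its effects was 3.01 ± 0.19 (SE, adjusted p = 4.52e-13, edgeR). *col-91*, also lowered in L1 larvae and 9.62 times wild type in the adult, had a difference of 4.17 ± 0.32 (adjusted p = 7.34e-11, edgeR). *col-176* had 198 and 321 adult counts (2.59, 2.16 to 3.103) and a difference of 2.77 ± 0.31. These 3 genes were thus 2-fold or more higher in the mutant adult and lower in mutant larvae. The genes of this paragraph were chosen for their L1 fall, and the difference subtracts that same L1 effect. Positive differences were therefore favoured by the choice and add no separate support. *col-92* had 39 and 186 adult counts (7.61, 5.36 to 11.04) and the most positive difference among called members, 6.998 ± 0.75, on few L1 counts. *col-98* (1.11, 1.05 to 1.18 in adults) had a difference of 1.57 ± 0.17, made almost wholly by the larval fall. *col-103* (1.03 ± 0.16) was alike in this, with an adult ratio of 1.08. For *col-107* (1.22 ± 0.18) the adult value added more, at 0.34 on the log2 scale beside -0.94 in L1 larvae. Its adult ratio was 1.27 (1.11 to 1.44). *col-153* was lower at both stages, with 998 and 356 adult counts (0.569, 0.503 to 0.643) and a difference of -0.13 ± 0.23 that did not pass.

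Of the 15 members raised in mutant larvae, 3 were at least 2-fold higher in the mutant adult, 12 were under 2-fold and none was 2-fold lower. Among all measured members 27.6% were at least 2-fold higher in the mutant adult, and among all genes 3.24%. The 3 were *col-180* (46 and 114 adult counts, ratio 3.95), *col-167* (37 and 68, 2.93) and *col-125* (457 and 637, 2.22). DESeq2 called none of these 3 in L1 larvae, with adjusted p values of 0.199, 0.0857 and 0.0585. *col-104*, the largest rise in larvae, had 721 and 406 adult counts (0.898, 0.793 to 1.02), and its effects differed by -1.12 ± 0.21 (adjusted p = 4.38e-04, edgeR). *col-48* (0.756, 0.643 to 0.887) and *col-109* (0.733, 0.627 to 0.855) were below wild type in the mutant adult, with differences of -1.05 ± 0.22 and -1.09 ± 0.24 that passed in edgeR and had adjusted p values of 0.0648 and 0.141 in DESeq2. Because these genes were chosen for their L1 rise, which the difference subtracts, negative differences were favoured by the choice. *col-77* was higher at both stages, with 733 and 823 adult counts (1.79, 1.62 to 1.98).

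**Figure D5:**
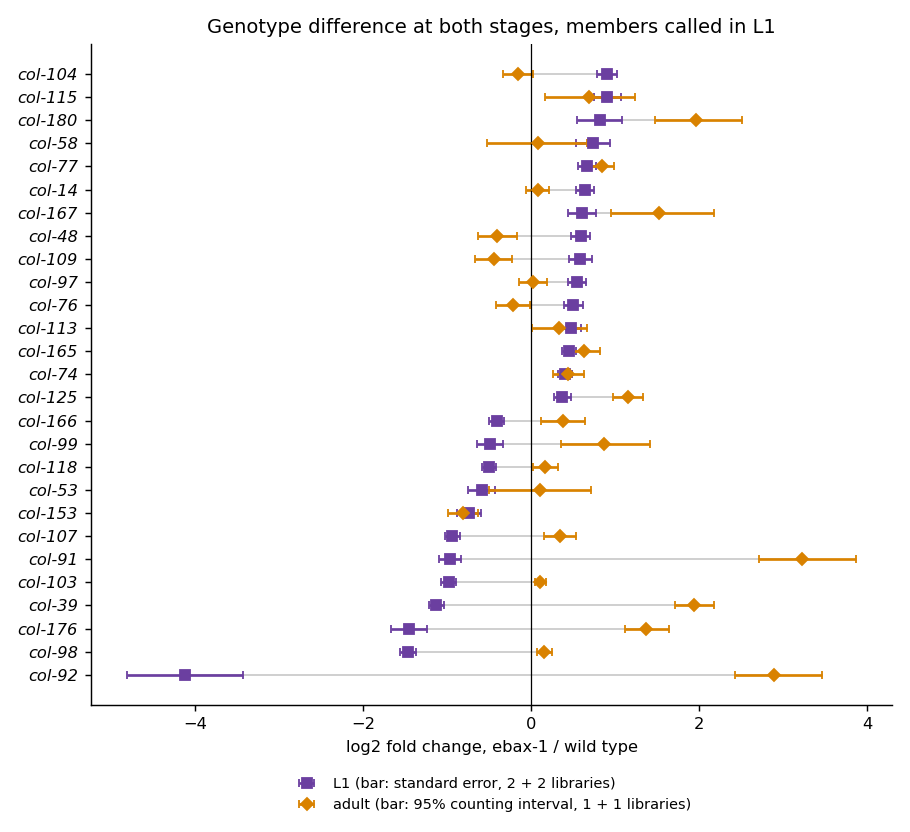
Log2 fold change between *ebax-1* and wild type in L1 larvae (squares, bars are standard errors from 2 and 2 libraries) and in adults (diamonds, bars are 95% counting intervals from 1 and 1 libraries) for 27 of the 28 collagens called in L1 larvae, without *col-151*, which had too few adult counts. The lowered larval collagens lie left of 0 in L1 larvae and mostly right of it in adults, with *col-39* at -1.13 and 1.94 and *col-91* at -0.97 and 3.22.

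Neighbouring collagen genes did not always move together. There were 19 pairs of members adjacent on a chromosome, and 10 had both genes measured in adults. In 1 pair both were at least 2-fold higher, *col-144* (2.45) and *col-145* (14.9), and in 1 both were 2-fold lower, *col-50* (0.174) and *col-51* (0.114). *col-39* and *col-79*, adjacent on chromosome II, went opposite ways, with 217 and 523 adult counts for the first and 424 and 81 for the second (0.305, 0.237 to 0.387). In 4 pairs both were under 2-fold and in 3 only 1 gene passed 2-fold. Among these was *col-183* beside *col-184* on chromosome X, where *col-183* was lowered and *col-184* had 9243 and 10003 counts (1.73, 1.68 to 1.78). In L1 larvae *col-104* was raised and the adjacent *col-105* was at 1.097 and 0.932 against 1.302 and 1.06 CPM. *col-12* and *col-13* on chromosome V are near-identical tandem copies, so their counts of 33 and 119 and of 7 and 20 in the adults are uncertain under counting of unique alignments.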

How the data were processed

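The deposited values are raw gene counts, not normalized by the authors. The study's methods and the processing notes name STAR 2.7.1a for alignment of 50-nt single-end reads, unique alignments only, and featureCounts over coding sequence on the reverse strand. The authors' own comparison was made with DESeq2. Annotation WS245 is named in the methods and build WBcel235 in the notes. Keeping unique alignments lowers the counts of near-identical collagens. Of the 20447 rows, 19620 had a symbol and 20159 a position in Ensembl release 115 of WBcel235. Members, gene lists and tests were chosen with earlier results of these data known.

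Fits ran on all genes with edgeR 4.0.16 (R 4.3.3). L1 genotypes used 4 libraries with genotype as the only term, and stages and the difference of effects used 6 libraries in 4 group means. Low genes were filtered by filterByExpr at a minimum count of 10, TMM factors were applied, and the two-sided quasi-likelihood F-test was adjusted by Benjamini-Hochberg, with calls at 0.05. The standard error is the fold change over the root of F. Adult fold changes came from TMM-scaled CPM with 1 added as prior count, for genes whose adult counts summed to 50 or more. Ratios of counts carry exact Clopper-Pearson intervals at 95%, which cover counting error only, and a count of 0 was set at a floor of 3. Levels per kb were TMM-scaled over 6 libraries. Replicate L1 libraries were compared by chi-square over genes, which gave 3.79 (wild type) and 6.05 (mutant) per degree of freedom, so none was a repeat deposit. No exact permutation test of 2 against 2 libraries can reach 0.05, so significance depends on the spread that edgeR pools across genes.

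Alternatives were DESeq2 1.42.0, RLE and total-count scaling, other filters and prior counts, a replicate block, and leaving out each L1 library. Named in L1 larvae were the 10 highest and 10 lowest called members that reached 5 CPM in either genotype. The 5 highest and 5 lowest were named in adults and between stages, as were the 5 leading levels of each group, up to 5 called members with the smallest interaction p, *col-19*, *col-7*, *col-99* and adjacent pairs. Each other list gave up to 4 called genes, or up to 2 where none passed.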

Additional observations from a re-analysis of the deposited data

Results flagged for a closer look

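The genotype effect differed between larvae and adults, by a test of the difference itself (edgeR, adult effect minus L1 effect on the log2 scale, adjusted p under 0.05), in 37 members. The adult effect was the more positive in 28 of them, *col-92* by 6.998, *col-91* by 4.17, *col-146* by 3.65, *col-137* by 3.53, *col-145* by 3.42, *col-124* by 3.07, *col-39* by 3.01, *col-121* by 2.80, *col-143* by 2.79, *col-161* by 2.77, *col-176* by 2.77, *col-129* by 2.41, *col-12* by 2.38, *col-120* by 2.25, *col-96* by 1.74, *col-98* by 1.57, *col-154* by 1.56, *col-142* by 1.42, *col-99* by 1.32, *col-107* by 1.22, *col-144* by 1.22, *col-150* by 1.18, *col-95* by 1.11, *col-103* by 1.03, *col-10* by 0.86, *col-166* by 0.74, *col-125* by 0.72 and *col-118* by 0.61. It was the more negative in 9, *col-108* (-8.99), *col-72* (-4.59), *col-51* (-3.52), *col-45* (-3.30), *col-104* (-1.12), *col-109* (-1.09), *col-48* (-1.05), *col-76* (-0.78) and *col-14* (-0.62). Of the 37, 9 had too few counts for the test within L1 larvae, *col-146*, *col-137*, *col-124*, *col-143*, *col-120*, *col-108*, *col-72*, *col-51* and *col-45*, and their values rest on few larval counts. The value of *col-108* also depends on how its mutant adult count of 0 is treated and is no measure of size. DESeq2 called 9 of the 37, *col-91*, *col-39*, *col-143*, *col-176*, *col-98*, *col-142*, *col-107*, *col-103* and *col-104*, did not call 12 and gave no adjusted p for the other 16. In edgeR, 13 of the 37 were not called when 1 or another L1 library was left out, *col-137*, *col-124*, *col-143*, *col-120*, *col-99*, *col-150*, *col-95*, *col-166*, *col-118*, *col-14*, *col-45*, *col-51* and *col-72*. The adult libraries are 1 per genotype and the mutant strain differed between stages, so stage and strain cannot be told apart.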

How the results depend on the processing

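In L1 larvae the 15 rises and 13 falls were 10 and 10 in DESeq2 (20 of the 28 called, and 1 without an adjusted p), 15 and 13 with RLE scaling or a minimum of 50 wild-type counts, 17 and 11 with total-count scaling, and 15 and 14 without a filter. Leaving out 1 L1 library gave 9 to 15 rises and 12 to 15 falls, with 9 rises only without replicate 2 of the wild type. With the replicate number as a block, the replicate block fit gave 15 and 13, and the deviations of same-numbered libraries had a correlation of -0.00758, so the numbers pair nothing. Putting the 7 left-out collagens back, an alternative chosen after seeing the data, gave 15 and 20 in L1 larvae, 37 and 24 in adults, 74 and 45 between stages, and 35 and 9 for the difference of effects. That difference was called in 28 and 9 members by edgeR, in 8 and 1 by DESeq2, and in 24 to 30 and 7 to 9 without 1 L1 library. The adult classes of 32 and 24 were 39 and 25 at a minimum of 10 counts, 29 and 19 at 100, and 32 and 24 under the other scalings and prior counts. The stage calls of 71 and 41 stayed within 62 to 72 and 31 to 42. No named member changed direction where it was called. Depth limits low members most: 73 could not be tested in L1 larvae and 27 not measured in adults. The causes of these changes were not tested.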
